A study of Drosophila melanogaster with 4 samples.

Results

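The comparison described here set the adult male transcriptome of flies homozygous for the V966M allele of Ago2 against that of flies carrying 1 copy of it. The members were chosen by a rule on data quality and level: a gene entered if its quantification status was OK in both V966M genotypes and its mean over the pair was at least 1 FPKM (fragments per kilobase of transcript, scaled to the mapped fragments of the library). Of 13990 genes in the deposited table, 13389 had status OK in both genotypes and 11079 also reached the level. The gene just inside the limit was kn, with a mean of 1.0 FPKM, and the gene just outside was CG4496, with 0.999859 FPKM.

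The homozygotes had the genotype V966M/V966M, and the heterozygotes carried V966M over TM3,twi-GFP,Sb,Ser. TM3 is a balancer, a rearranged chromosome 3 that suppresses recombination, here with a twi-GFP transgene and the dominant markers Sb and Ser. The allele's name follows the notation for a valine-to-methionine substitution, and the labels say nothing more of the lesion. The other stock of the series holds the allele 51B, as 51B/51B and as 51B over TM3, Ser, y+, and its values are given only for orientation. All flies were males 0 to 16 hr old, grown at 25 °C, so newly eclosed animals in whole-body RNA. Homozygotes lack the balancer that heterozygotes carry, so the dose of the allele and the presence of TM3 cannot be told apart. The table holds 1 value per genotype: differences between the genotypes have no replicate behind them and were not tested.

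Ago2 encodes the Argonaute protein that binds small interfering RNAs made by Dicer-2 and cuts transcripts that pair with them. In flies the pathway acts against viruses and transposable elements, and it also handles endogenous small interfering RNAs from hairpin transcripts and overlapping genes. The innate immune system of the fly, which figures in the results below, releases antimicrobial peptides from the fat body and other tissues. The Imd pathway mainly drives diptericins, attacins and drosocin, and the Toll pathway mainly drives drosomycin and the small immune-induced peptides.

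Summed FPKM was 645245 in the V966M heterozygote and 523951 in the homozygote, and the median gene had a homozygote value 0.841 times that of the heterozygote. Changes are therefore given as log2((FPKM + 1)/(FPKM + 1)) of homozygote over heterozygote after subtraction of the median over all genes, -0.25, and are called centred changes. Adding 1 FPKM draws the uncentred change of low genes toward 0, so that their centred change lies a little above 0 by construction. The median was 0.09 for genes with a mean of 1 to 2 FPKM and -0.04 for genes above 100 FPKM. Read depth is unknown, and the deposited interval around each value served as the measure of precision. From its centre to its edge the interval spanned, as a median over genes at 5 FPKM or more, 24.9% of the level in heterozygous flies and 16.4% in homozygous flies. For the median gene the 2 intervals part at a 1.53-fold difference, and a 2-fold difference parts them for 91.8% of genes.

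AGO2 itself had 150.02 FPKM (deposited interval 111 to 189) in heterozygous flies and 101 FPKM (83.4 to 118) in homozygous flies. Its centred change was -0.32, and the intervals overlapped once the homozygote was rescaled by the median. The RNA level does not check a substitution, so it does not show whether the labels are right. In the 51B stock the gene had 46.5 FPKM in heterozygous flies and 6.33 FPKM in homozygous flies. It lies on 3L from 15547217 to 15556163 (dm3) and shares that deposited locus with CG7739. Of the other siRNA pathway genes, Dcr-2, which makes the small RNAs, had a centred change of -0.24, and its partner r2d2 one of -0.03. The double-stranded RNA binding protein gene loqs was at 0.19. The nuclease subunit genes trsn and Trax, whose products help to clear the passenger strand, were at -0.15 and 0.01. None of the 6 analysed members passed 1.5-fold, and Hen1, which methylates the small RNAs, was left out because its quantification failed in the homozygote.

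The 2 V966M genotypes were close across the transcriptome. The middle 50% of genes had centred changes between -0.11 and 0.10, and 97.4% of all genes lay within 0.5 of the median. A gene was called where its centred change reached 2-fold and the deposited intervals did not overlap after rescaling. By this rule 12 genes were higher in the homozygote (0.108% of those analysed) and 8 were lower (0.0722%), together 0.181%. A second rule with the threshold at 1.5-fold called 29 higher (0.262%) and 63 lower (0.569%), together 0.83%. In the 51B stock the 2-fold rule called 305 of 10932 genes, or 2.79% (1.35% higher and 1.44% lower), and the 1.5-fold rule 7.63%. This difference between stocks was not tested.

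**Figure D1:**
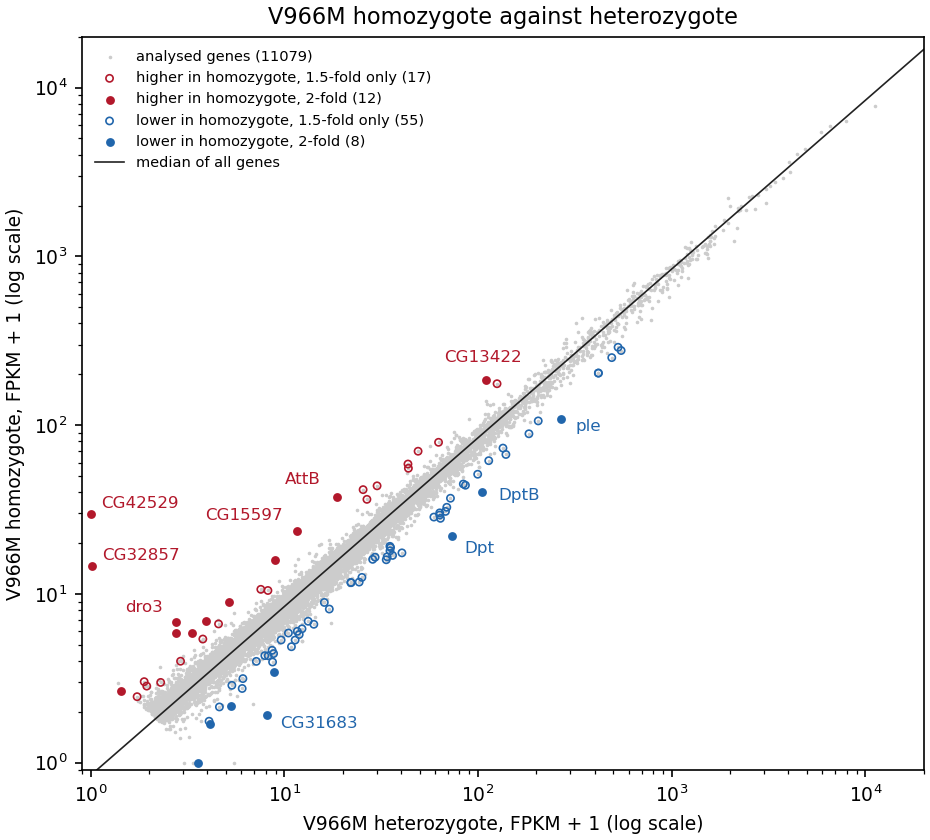
Each point is 1 of the 11079 analysed genes, with FPKM + 1 in the V966M heterozygote on the x axis and in the homozygote on the y axis, both on log scales. Red marks genes higher and blue genes lower in the homozygote, filled at 2-fold (12 and 8 genes) and open for those past 1.5-fold only; the line is the median ratio of 0.841.

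The genes called at 2-fold included an enzyme gene of dopamine synthesis and several antimicrobial peptide genes. The former was ple, which encodes tyrosine hydroxylase, the first enzyme on the path from tyrosine to dopamine and to the catechols that harden and darken new cuticle. It lies on 3L from 6706455 to 6712624 and had 266 FPKM (189 to 344) in heterozygous flies and 108 FPKM (88.5 to 127) in homozygous flies, a centred change of -1.05. The 51B levels were 161 FPKM over the balancer and 262 FPKM without it. The V966M homozygote was thus the lowest of the 4 genotypes, and the V966M heterozygote and 51B homozygote were close to each other.

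No other tanning gene followed ple past the threshold: of 23 analysed genes of cuticle tanning and body pigment, ple was the single call, and the list's median was -0.03. Pu, whose GTP cyclohydrolase product leads to the cofactor of tyrosine hydroxylase, had 120 FPKM (109 to 131) and 79.3 FPKM (76.7 to 81.9), with a centred change of -0.35 and intervals apart. The pigment gene e, which joins dopamine to beta-alanine, had 81.3 FPKM (58.6 to 104) in heterozygous flies and 53.5 FPKM (44.6 to 62.4) in homozygous flies, a centred change of -0.34. The body colour gene y was at -0.25 and yellow-h at -0.36, while yellow-g and yellow-k, at 2 to 4 FPKM, were at 0.41 and 0.42. Cuticle protein genes had a median of 0.11 over 57 of 121 members, with 42 above 0, and a median of -0.14 without centring. Cpr72Ea, a chitin-binding cuticle protein gene, was higher at 2-fold (2.95 and 5.93 FPKM, centred change 1.06), and Cpr50Ca was higher at 1.5-fold (1.30 and 1.99 FPKM). Edg91 and Cpr67Fb were at 0.60 and 0.59 without separation of the intervals, and Cpr49Ac went the other way (10.9 and 6.06 FPKM, -0.51, intervals apart). Most of these genes are at low levels, where the pseudocount lifts centred values. Cht4, a chitinase gene, had 2.32 FPKM (1.49 to 3.16) in heterozygous flies and 4.86 FPKM (3.76 to 5.95) in homozygous flies.

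Antimicrobial peptide genes split into members that were lower and members that were higher in the homozygote. Of 20 listed genes 16 were analysed, 3 were higher and 2 lower at 2-fold, 3 and 4 at 1.5-fold, and 9 did not pass. Over all genes the 2-fold shares were 0.108% and 0.0722% and the 1.5-fold shares 0.262% and 0.569%. The diptericin genes Dpt and DptB, neighbours on 2R between 14753270 and 14755400, were lower. Dpt had 72.2 FPKM (52.8 to 91.6) in heterozygous flies and 21.0 FPKM (16.5 to 25.5) in homozygous flies, a 3.44-fold difference as deposited and a centred change of -1.49. DptB had 104 FPKM (76.4 to 131) and 39.1 FPKM (31.4 to 46.8), with a centred change of -1.14. In both V966M genotypes these genes stood above the 51B stock, where Dpt was at 3.33 and 2.27 FPKM and DptB at 6.36 and 3.96 FPKM.

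The attacin genes did not move together. AttB had 17.6 FPKM (13.2 to 22) in heterozygous flies and 36.7 FPKM (30.6 to 42.9) in homozygous flies, and AttA had 7.95 FPKM (5.39 to 10.5) and 14.8 FPKM (11.8 to 17.8). Their centred changes were 1.27 and 1.07. AttC was lower, with 62.4 FPKM (46.7 to 78.1) and 28.3 FPKM (23.5 to 33.1) and a centred change of -0.86. Drosocin (Dro) was lower too, with 58.1 FPKM (42.0 to 74.3) and 27.5 FPKM (21.8 to 33.2). Dro, AttA and AttB are neighbours on 2R between 10633461 and 10640774, so the lower and the higher genes lie side by side. AttA and AttB are near-identical copies whose fragments can be exchanged, and AttB and AttC share their deposited loci with other genes.

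**Figure D2:**
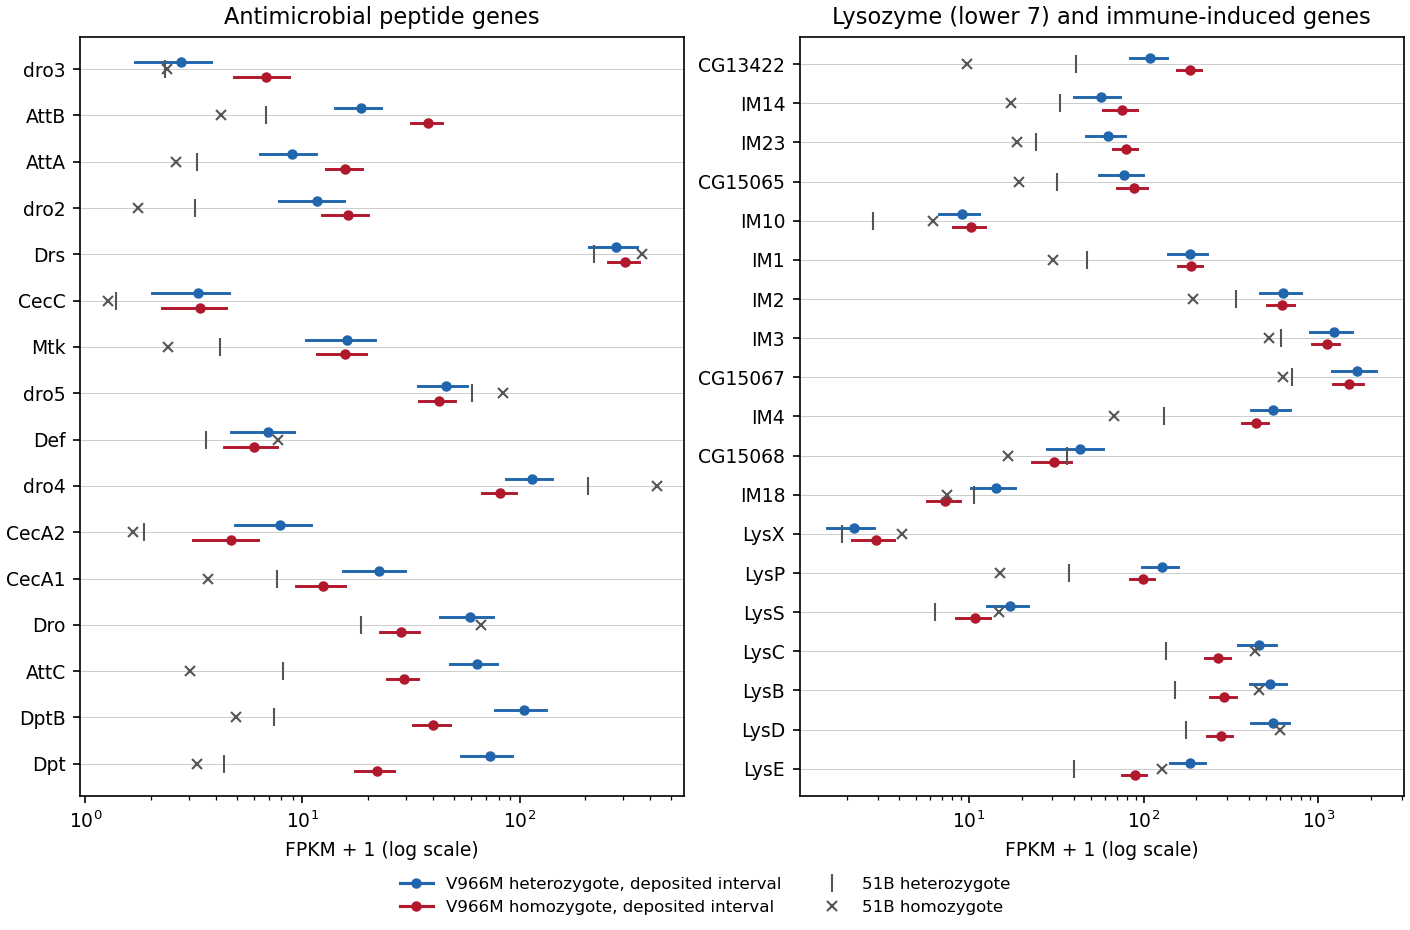
FPKM + 1 on a log scale for each analysed antimicrobial peptide gene (left) and for lysozyme and immune-induced genes (right), ordered by centred change, with the deposited interval as a line; blue is the V966M heterozygote, red the homozygote, and grey marks the 51B genotypes without intervals. Dpt, DptB, AttC and Dro were lower and dro3, AttB and AttA higher in the homozygote, and LysB, LysD and LysE were lower.

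In the drosomycin family, dro3 (a drosomycin-like gene) had 1.74 FPKM (0.694 to 2.79) in heterozygous flies and 5.77 FPKM (3.84 to 7.69) in homozygous flies. Drs itself, the antifungal drosomycin gene, had 277 FPKM (207 to 347) and 304 FPKM (256 to 352), a centred change of 0.38 with overlapping intervals, and dro2 was at 0.71, also with overlap. The cecropin genes CecA1 and CecA2 were at -0.60 and -0.51 without separation. The list's median was 0.09, and it became -0.16 without centring, -0.08 when only genes with a mean of at least 5 FPKM were kept and -0.38 without chromosome 3 genes, which include all drosomycin and cecropin members.

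Immune-induced peptide genes stood on the high side relative to the median gene. Of 12 members 9 had a centred change above 0, and the median was 0.25, or 0.0027 without centring. At 2-fold 1 was higher and at 1.5-fold 2 were, beside 0.108% and 0.262% of all genes. Their summed level as deposited was 4631 FPKM in heterozygous and 4333 FPKM in homozygous flies. CG13422, named GNBP-like3 in RefSeq, was higher at 2-fold, with 108 FPKM (82.1 to 134) in heterozygous flies and 183 FPKM (153 to 213) in homozygous flies. Its centred change of 1.0 lay at the threshold, and it was not called at 2-fold without centring or without the level filter. IM23, a bomanin gene of the Toll response, was higher at 1.5-fold (61.5 and 78.1 FPKM, 0.59). IM14 (55.7 and 74.2 FPKM) was at 0.66 and CG15065 at 0.43 without separation of the intervals, and IM18 was at -0.72 (13.3 and 6.31 FPKM), where the rescaled intervals still touched.

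The receptors and signalling genes upstream of these peptides did not pass either threshold. Among 14 peptidoglycan and glucan recognition genes the median was 0.01, and the farthest was PGRP-SC1a at -0.38. Among 18 Toll and Imd signalling genes it was 0.02. SPE, a protease that activates the Toll ligand, had 236 and 240 FPKM (0.27), Rel, the Imd transcription factor, had 38.3 and 36.9 FPKM (0.20), and pirk, an Imd inhibitor, had 9.33 and 5.86 FPKM (-0.34). Turandot stress genes (4 members, median 0.04) and JAK-STAT and antiviral genes (6 members, median 0.12, os highest at 0.41) had no calls. Whole flies were sequenced, so less RNA per cell and fewer cells of a type cannot be told apart here or in any tissue list below.

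Lysozyme genes of the gut gave the lowest median of any list, -0.53 over 7 members, with 6 below 0. At 1.5-fold 3 were lower, beside 0.569% of all genes. The 1 member above 0 was at 0.67 and was not called. LysE had 182 FPKM (140 to 224) in heterozygous flies and 87.8 FPKM (73.7 to 102) in homozygous flies, LysD had 547 FPKM (412 to 681) and 276 FPKM (230 to 321), and LysB had 527 FPKM (403 to 651) and 288 FPKM (240 to 336). The first has a centred change of -0.79, the next -0.74 and the last -0.62. These genes lie in 1 cluster on 3L and are near-identical, so a single change shared out among copies cannot be told from separate changes. The called gene CG32335 (meep in RefSeq) lies next to them, from 1201871 to 1203030. It had 7.81 FPKM (5.67 to 9.95) and 2.44 FPKM (1.72 to 3.17), with a centred change of -1.11. Digestive protease and carbohydrase genes were mostly slightly lower: 25 of 32 lay below 0, with a median of -0.08. Jon25Biii, a Jonah serine protease gene, was the single call (203 and 105 FPKM, -0.70), and Jon25Bii followed at -0.58.

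**Figure D3:**
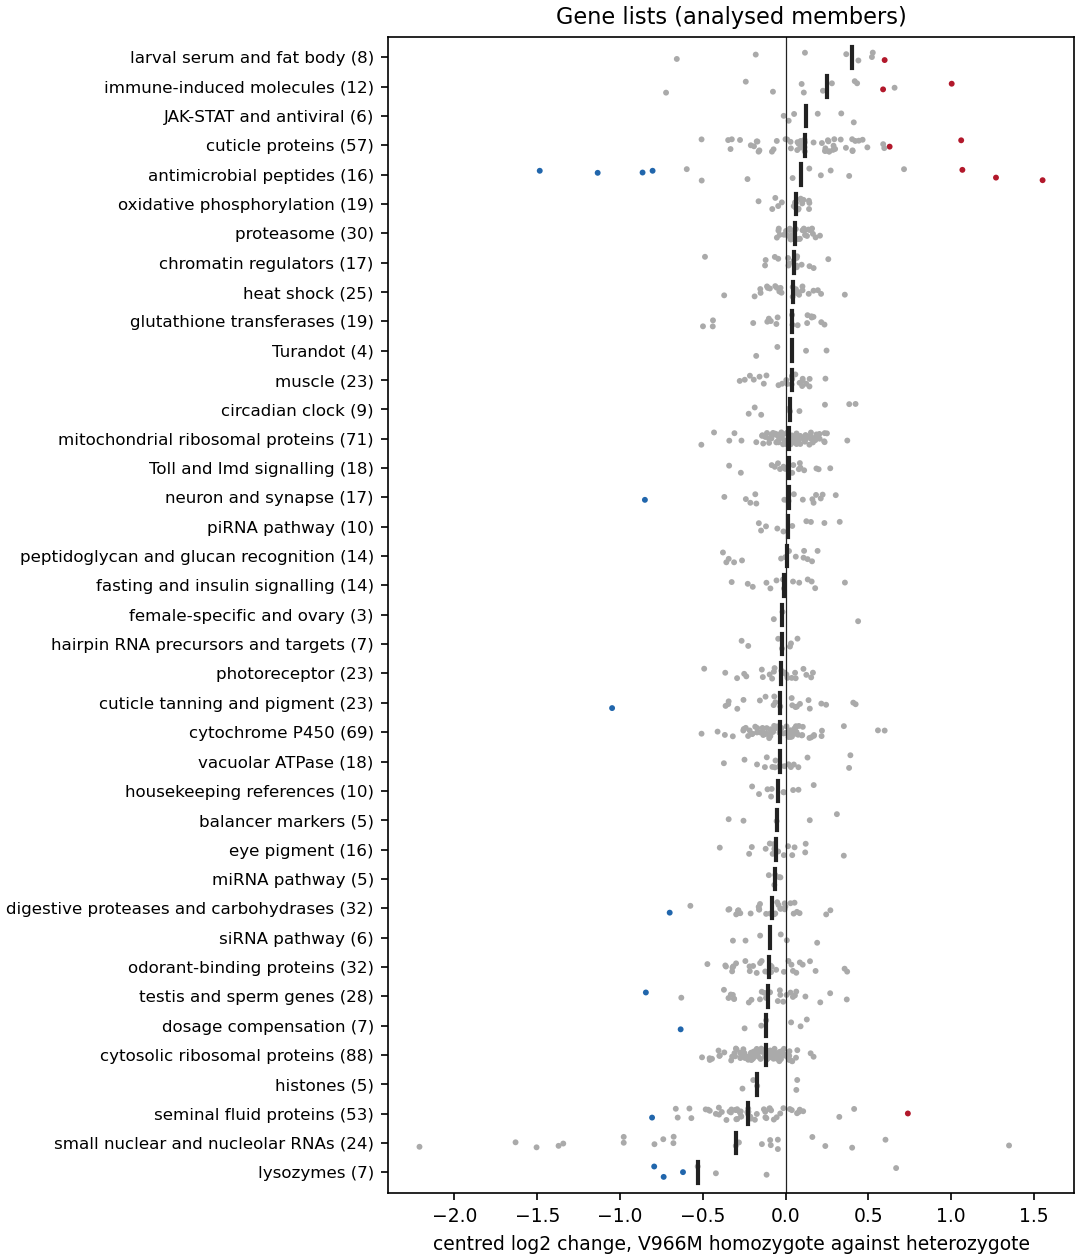
Centred log2 change of each analysed member of 39 gene lists, with the number of members in brackets and a black bar at the list's median; red and blue points passed 1.5-fold with intervals apart. Lysozymes have the lowest median (-0.53) and larval serum and fat body genes the highest (0.40); vertical scatter within a row carries no value.

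Male reproductive genes were slightly lower as groups. Seminal fluid protein genes, made in the accessory gland, had a median of -0.23 over 53 of 56 members, with 44 below 0. Mst57Dc was lower at 1.5-fold, with 138 FPKM (103 to 173) and 66.0 FPKM (54.9 to 77.0), and its neighbour Mst57Da was at -0.65. Acp98AB was at 124 FPKM (92.4 to 156) and 175 FPKM (142 to 207), higher at 1.5-fold. Testis and sperm genes had a median of -0.11 over 28 members with 19 below 0. The sperm tail gene djl was lower (10.4 and 4.32 FPKM, -0.84), and its relative dj was at -0.63 without separation. Seminal fluid genes had summed levels of 8557 and 6250 FPKM. Female-specific and ovary genes together had 20 and 19 FPKM over 3 analysed members of 16. Transcripts of the seminal fluid list are short (median 456 nucleotides), and genes under 500 nucleotides had a median of -0.07 over all 401 analysed genes. The part of length in the list's median was not tested.

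Fat body and storage genes stood on the high side, with a median of 0.40 over 8 larval serum and fat body genes (0.15 without centring) and 6 above 0. Lsp1alpha, a larval serum protein gene, was higher at 1.5-fold (7.22 and 9.47 FPKM). Lsp2 was at 0.53 (74.5 and 90.5 FPKM), Fbp1 at 0.52 (42.2 and 51.1 FPKM) and Fbp2 at 0.44 (114 and 130 FPKM), each with overlapping intervals. Rfabg, the apolipophorin precursor gene, had 77.8 and 41.0 FPKM, a centred change of -0.66, and lies on chromosome 4, which is described below. Fasting and insulin signalling genes had a median of -0.01 over 14 members, with Pepck at 0.36 and ImpL2 at -0.33. The labels give no age finer than the 0 to 16 hr window.

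Chromosome 4 genes were lower in the homozygote as a group. This small chromosome is largely heterochromatic, with active genes embedded in repeats, and Drosophila males and females carry it in equal dose. Of its 76 analysed genes 68 had a centred change below 0 (89.5%, against 50.5% on the long autosomal arms), with a median of -0.37 and quartiles of -0.50 and -0.18. At 2-fold 0 genes were called. At 1.5-fold 8 were lower and 0 higher, which is 10.5% against 0.569% of all genes. The rescaled intervals were apart for 26 genes, all 26 lower in the homozygote. Among all 11079 analysed genes they were apart for 174 lower and 63 higher ones. The split by chromosome was described after its values were seen.

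The called genes of chromosome 4 were among its lowest values. Between them lay Rfabg (-0.66) and CG17471 (-0.62), which were not called because their rescaled intervals overlapped. The gene cals, which encodes calsyntenin, had 32.6 FPKM (28.6 to 36.5) in heterozygous flies and 14.9 FPKM (12.6 to 17.2) in homozygous flies, a centred change of -0.83. The TGF-beta family ligand gene myoglianin had 23.3 FPKM (20.5 to 26.2) and 10.7 FPKM (9.48 to 12), a centred change of -0.80. Syt7, a synaptotagmin gene, had 5.05 FPKM (3.81 to 6.30) and 1.75 FPKM (1.34 to 2.16), the lowest centred change on the chromosome at -0.89. The remaining calls were CG1732 (a GABA transporter gene, Gat in RefSeq), CG32000, CG33978, RhoGAP102A and CG2316, with centred changes from -0.76 to -0.59. For cals, myoglianin and Syt7 the V966M homozygote lay close to the 51B heterozygote (14.6, 10.8 and 1.77 FPKM), and the V966M heterozygote was the highest of the 4 genotypes. Genes on chromosome 4 that were not low included gw (-0.06), ATPsyn-beta (-0.05), Sox102F (0.00), ey (0.11) and CG2052 (0.15).

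Pericentric genes on other chromosomes were shifted in the same direction. The table keeps genes assembled within the heterochromatin next to the centromeres on separate sequences (2LHet, 2RHet, 3LHet, 3RHet and XHet). Of 48 such genes 42 had a centred change below 0, with a median of -0.22, and 3 were lower at 1.5-fold (6.25%). All 14 genes of 2RHet were below 0. Among them were uex (13.2 FPKM, 10.3 to 16.1, and 5.6 FPKM, 4.76 to 6.44; -0.86), CG40263 (10.7 and 5.0 FPKM; -0.71) and CG17514 (12.3 and 5.88 FPKM; -0.70). On the assembled arms the low values lay near the centromeric end. On 2R the median was -0.33 over 8 genes in the first 0.5 Mb, -0.36 over 10 genes up to 1 Mb, -0.14 over 51 genes up to 2 Mb and -0.01 over 89 genes up to 3 Mb. On 2L it was -0.35 over 8 genes in the first 0.5 Mb and -0.01 over 178 genes between 3 and 5 Mb. On 3R the median of the first 0.5 Mb was -0.05 over 55 genes, and on X it was 0.05 over 15 genes, so not every arm showed the low end. The lowest medians, those of the first 0.5 Mb on 2L, 2R and 3L and of the next bin on 2R, rest on 3 to 10 genes each.

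**Figure D4:**
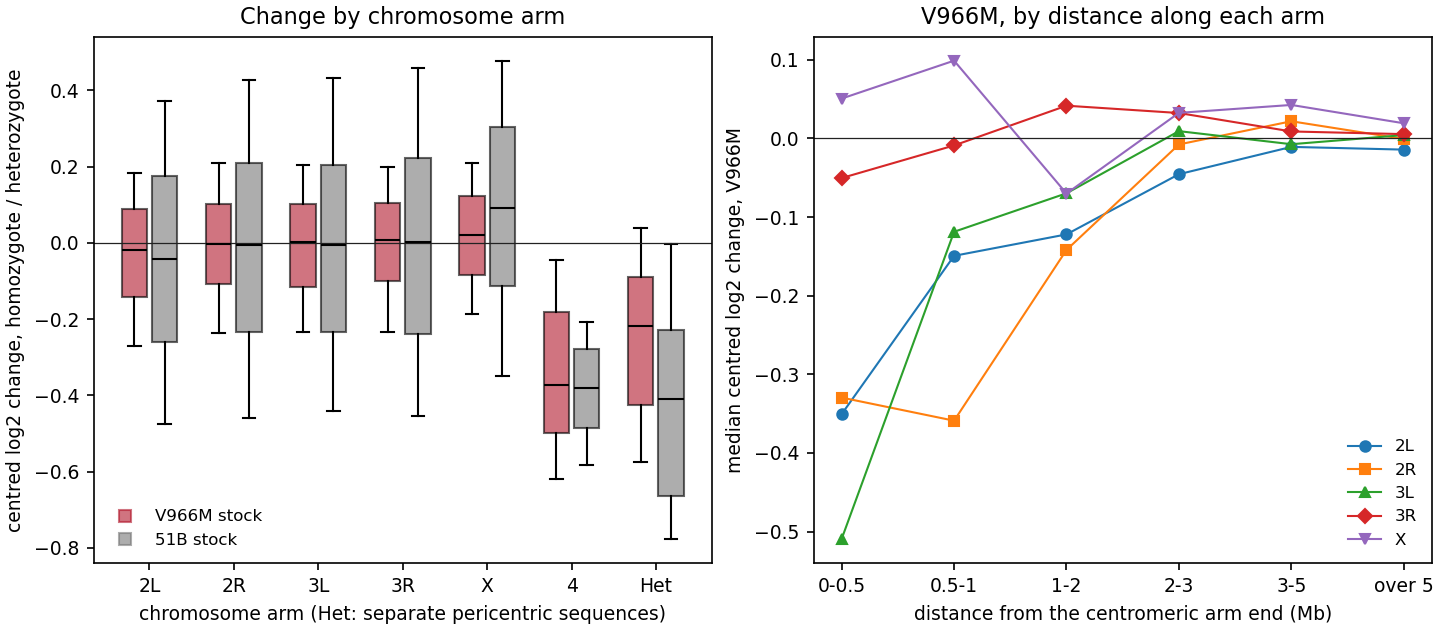
Left, centred log2 change of homozygote over heterozygote by chromosome arm in the V966M stock (red) and the 51B stock (grey); boxes are quartiles, the black line is the median, and whiskers run from the 10th to the 90th percentile of genes. Right, V966M medians by distance from the centromeric end of each arm; chromosome 4 (median -0.37) and the Het sequences (-0.22) lie below the long arms, and the lowest values on 2L, 2R and 3L are in the first 1 Mb.

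Several genes that stood out within functional lists belong to these regions. Snap25, a synaptic membrane fusion gene at the proximal end of 3L, was the single call among 17 neuron and synapse genes (list median 0.02). It had 35.2 FPKM (26.1 to 44.3) in heterozygous flies and 15.9 FPKM (13.1 to 18.7) in homozygous flies. The farthest of 17 chromatin regulator genes (median 0.05, 0 calls) was pho, a Polycomb group gene on chromosome 4, with 9.17 and 5.10 FPKM and a centred change of -0.49. The farthest of 16 eye pigment genes (median -0.06, 0 calls) was lt, a classic gene of 2L heterochromatin, with 11.4 and 6.91 FPKM and a centred change of -0.40. RpS3A, on chromosome 4, was among the 4 lowest of the ribosomal protein genes (658 and 406 FPKM, -0.45). Chromosome 4, the Het sequences and the 2 Mb next to the autosomal centromeres were put together after low values were seen in them. This combined region held 540 of the analysed genes (4.87%). It held 18 of the 63 genes lower at 1.5-fold (28.6%) and 0 of the 29 higher ones, a share that was not tested. Nipped-B, which loads cohesin, and the stress response factor gene Atf6 were among the 18. The centromeric end of the X arm was left out of the region. There 1 gene was higher and 1 lower at 1.5-fold between 0.5 and 1 Mb, and 1 higher and 0 lower between 1 and 2 Mb. The 2 genes between 0.5 and 1 Mb, CG32857 and CG32500, share 1 locus, which is described below.

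The same regions were low in the other stock, whose samples are separate. In 51B the median centred change of chromosome 4 genes was -0.38 over 75 genes and that of the Het sequences -0.41 over 45. Of 74 chromosome 4 genes analysed in both stocks, 66 were below 0 in both (89.2%), where 30.2% of all genes were. Their median level per gene was 14.9 and 8.93 FPKM in heterozygous and homozygous V966M flies, and 8.43 and 6.89 FPKM in the same order in 51B. Over all genes analysed in both stocks the medians were, in this order, 13.0, 10.6, 10.7 and 11.5 FPKM. The heterozygotes of both stocks carry TM3, so its presence and the allele's dose cannot be told apart in either stock. Level and length were looked at beside the shift. Within chromosome 4 the median was -0.16 for 14 genes with a mean of 1 to 5 FPKM, -0.40 for 18 genes up to 10 FPKM, -0.42 for 32 genes up to 30 FPKM and -0.38 for 12 genes above. By transcript length it was -0.28 for 5 genes of 500 to 1000 nucleotides, -0.27 for 13 genes up to 2000, -0.41 for 30 genes up to 4000 and -0.39 for 25 longer genes. All genes of the shortest and longest of these classes had medians of -0.02 and 0.03.

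Chromosome 3, which carries both AGO2 and the balancer, did not hold a larger share of the calls. At 2-fold 7 of its 4866 genes were called (0.144%), against 13 of 6213 elsewhere (0.209%), and its median was 0.00. The 5 listed balancer markers were uncalled, with centred changes from -0.34 to 0.31. Among them Sb had 1.10 and 0.954 FPKM and Ser 4.33 and 3.32 FPKM. The gene twi, carried on TM3 only as the driver of the GFP transgene, had 9.37 and 9.81 FPKM. On X 11 of 1795 genes were higher (0.613%, beside 0.262% of all genes) and 2 lower (0.111%, beside 0.569%) at 1.5-fold. Among the higher ones were the neighbours CG14205 (4.17 and 7.99 FPKM, 1.05, called at 2-fold) and CG14219 (0.889 and 2.02 FPKM, 0.93). In the 51B stock CG14205 had 1.29 and 0.478 FPKM, below both V966M genotypes.

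The largest values of the comparison came from genes that share a deposited locus with other genes. CG42529, on 3L from 19722024 to 19723322, was listed at 0 in heterozygous flies and 28.5 FPKM (24.6 to 32.5) in homozygous flies. Its partner CG14101 had 66.9 FPKM (55.4 to 78.4) and 29.8 FPKM (25.8 to 33.8) and was lower at 1.5-fold. Their sum was 66.9 FPKM in heterozygous flies and 58.3 FPKM in homozygous flies, a ratio of 0.872 beside the 0.841 of the median gene. CG32857, on X, had 0.0180 FPKM and 13.7 FPKM (11.4 to 15.9), while CG32500 in the same locus had 34.1 and 18.1 FPKM. CG33502, the third gene there, had 3.80 and 3.32 FPKM. The sum over that locus was 37.9 and 35.1 FPKM, a ratio of 0.927. In both loci the total stayed near the common ratio while the division between genes differed, and the centred changes of 5.13 and 4.10 depend on the pseudocount.

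AttB, described above, also shares its locus, and the other 5 such calls were below 10 FPKM in both genotypes. CG31683 had 7.16 FPKM (5.30 to 9.01) in heterozygous flies and 0.908 FPKM (0.467 to 1.35) in homozygous flies, the lowest centred change among the calls at -1.85, while CG18858 in its locus had 34.5 and 32.0 FPKM. CG7071 had 2.56 FPKM (1.43 to 3.70) in the heterozygote and was listed at 0 in the homozygote and in the 51B homozygote. Its deposited interval in the V966M homozygote was 0 to 0, as was that of CG42529 in the V966M heterozygote. Such an interval has no width, so for these calls the interval rule is a weak check. SP555 had 3.15 and 0.687 FPKM in a locus of 6 genes, CG17325 had 4.29 and 1.15 FPKM, and inaF-A had 0.432 and 1.66 FPKM beside 39.8 and 25.4 FPKM of inaF-B. In all, 8 of the 20 calls share a locus, as do 3998 of the 11079 analysed genes. Among genes that do not share a locus 0.169% were called, close to the 0.181% of all genes. Of the calls with a locus of their own and not yet described, CG15597 on 3R had 10.6 FPKM (7.55 to 13.7) and 22.7 FPKM (18.3 to 27.1), a centred change of 1.28. CG1850 on 2R had 1.77 FPKM (1.20 to 2.33) and 4.84 FPKM (3.90 to 5.77), a centred change of 1.33.

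**Figure D5:**
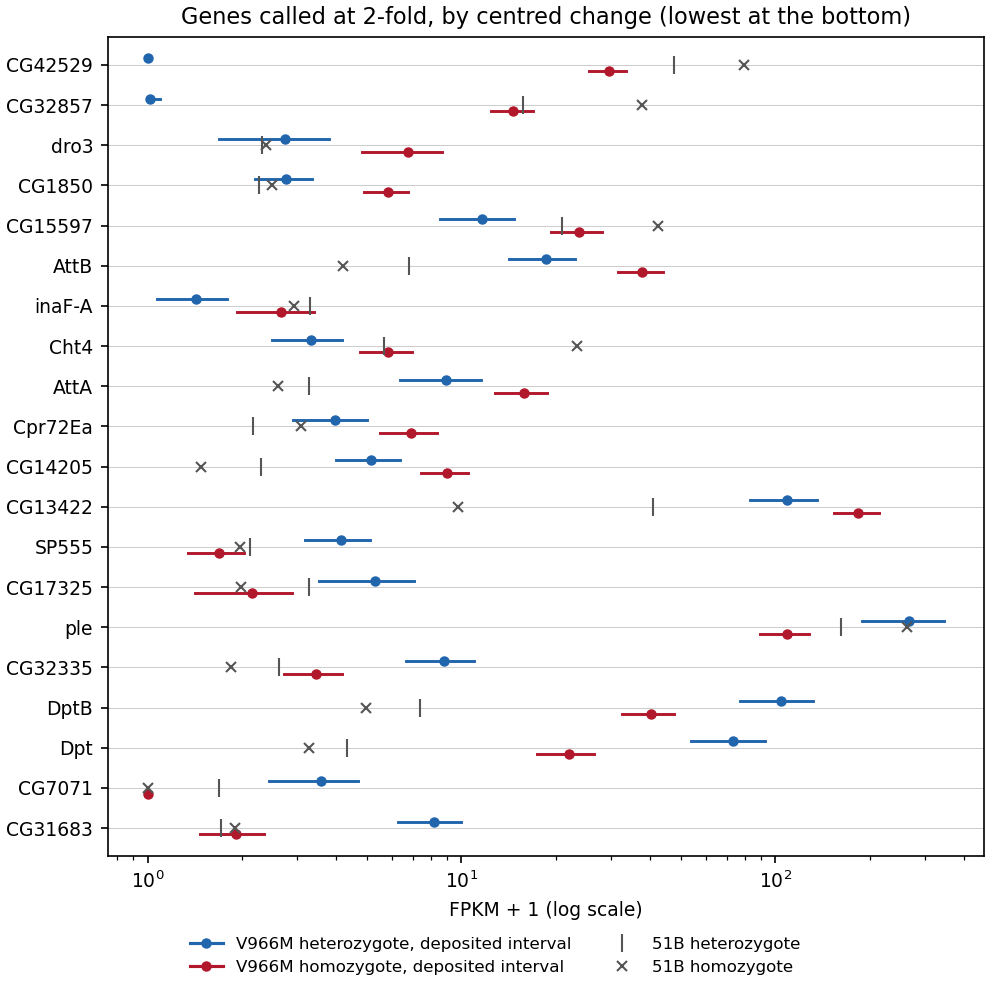
FPKM + 1 on a log scale for the 20 genes called at 2-fold, with deposited intervals for the V966M heterozygote (blue) and homozygote (red) and the 51B heterozygote (bar) and homozygote (cross) without intervals. All 8 lower genes are above both 51B genotypes in the V966M heterozygote, and 7 of the 12 higher genes are above both 51B genotypes in both V966M genotypes. Levels are as deposited, and the calling rule itself favours a high V966M heterozygote in the lower genes.

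The other stock placed the calls as follows. Levels were compared as deposited, and the V966M heterozygote ran high in general. Its median over all genes analysed in both stocks was 13.0 FPKM, beside 10.7 and 11.5 FPKM in 51B. The calling rule also favours a high heterozygote in lower genes and a low one in higher genes, so the positions only describe the calls. For all 8 genes called lower, the V966M heterozygote lay above both 51B genotypes. The homozygote lay above both in 4 genes, within their range in 2 and below them in 2. Among those within, CG7071 was at 0 in both homozygotes. For the 12 genes called higher, both V966M genotypes lay above the 51B pair in 7 and both below it in 3, and in 2 the heterozygote lay below and the homozygote within. Of the 92 genes past 1.5-fold in V966M, 83 were also analysed in 51B. There 7 were higher in both homozygotes and 17 lower in both, beside 3.33% of genes called higher and 4.3% lower in 51B at 1.5-fold. The shared higher genes included CG15597, Cht4, Nmdmc, the zinc transporter gene ZnT35C and the cold-induced gene Fst, and the shared lower genes included AttC, uex, myoglianin, Jon25Biii and Mst57Dc. CG42529 and CG32857 were also among the shared higher genes, and CG14101 and CG32500 from the same loci among the shared lower ones. These loci thus enter both counts. The overlap between stocks was not tested.

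Noncoding RNAs were lower as a class. By the reference annotation, 43 of 59 genes of the class ncRNA were below 0, with a median of -0.16. At 1.5-fold 3 were lower (5.08%, beside 0.569% of all genes). These were roX1 and CR42652, described next, and CR31144 (98.5 and 50.1 FPKM, -0.71), which shares its locus with another gene. The male X-chromosome RNA roX1, a scaffold of the dosage compensation complex, had 113 FPKM (94.9 to 130) and 60.5 FPKM (54.3 to 66.7), and its centred change of -0.63 made it the single call among 7 dosage compensation genes (median -0.12). Its partner roX2 was at -0.12. The signal recognition particle RNA 7SLRNA had 417 FPKM (319 to 515) and 202 FPKM (171 to 234), a centred change of -0.79, and its copy CR42652 had identical values, so they count as 1 measurement. Small nuclear and nucleolar RNAs had a median of -0.30 over 24 analysed of 276 listed, with 19 below 0 and 0 calls. Their intervals were wide, as for snRNA:U1:21D with 2.68 FPKM (0.743 to 4.63) and 0.000811 FPKM (0 to 0.684).

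Most cytosolic ribosomal protein genes were low by a small amount. Of 88 analysed members 76 were below 0 and 12 above, with a range of -0.51 to 0.17. The median was -0.12, and 0 were called. All genes with a mean above 100 FPKM had a median of -0.04, with 59.5% below 0. The farthest were RpL41 (2083 and 1235 FPKM, -0.51), RpL39 (1213 and 743 FPKM, -0.46) and RpL27 (552 and 338 FPKM, -0.46). By transcript length the medians were -0.37 for 7 members under 500 nucleotides, -0.12 for 66 members up to 1000 and -0.09 for 14 members up to 2000, where all genes of these lengths had -0.07, -0.02 and 0.01. Mitochondrial ribosomal protein genes had a median of 0.02 over 71 members and proteasome genes one of 0.06 over 30, with 25 above 0. For oxidative phosphorylation genes the median was 0.06 over 19 and for vacuolar ATPase genes -0.04 over 18. None of these lists had a call.

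The remaining lists stayed near the median of all genes and had 0 calls at 1.5-fold. Small RNA lists gave -0.06 for 5 miRNA pathway genes, 0.01 for 10 piRNA pathway genes and -0.02 for 7 hairpin RNA precursors and targets, where CG8289 (-0.27) and CR32207 (-0.23) lay farthest. Heat shock genes had a median of 0.04 over 25 members, with Hsp22 at -0.37 and Hsp23 at 0.36. Detoxification genes gave -0.03 for 69 cytochrome P450 genes and 0.04 for 19 glutathione transferase genes, and in the former Cyp4d14 was at -0.51 (11.4 and 6.36 FPKM). Odorant-binding protein genes had a median of -0.10 over 32 members. Muscle genes, among the most abundant transcripts, were at 0.04 over 23 members, and Mlc2 had 11193 and 7769 FPKM (-0.28). Photoreceptor genes were at -0.03 over 23, with the blue opsin gene Rh5 at -0.49 (16.5 and 9.49 FPKM). The 9 circadian clock genes had a median of 0.03, with vri at 0.42 and intervals apart (12.9 and 14.6 FPKM), per at 0.38 and tim at 0.24. The lists of 5 balancer markers, 5 histone genes, 3 female-specific genes and 10 housekeeping references gave -0.05, -0.17, -0.02 and -0.05.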

How the data were processed

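Total RNA from whole adult males was made into standard Illumina libraries, per the labels' protocols. The authors deposited FPKM values with a lower and upper bound and a status for each gene and genotype, and TopHat, Cufflinks and build dm3 are named per the submitters' processing notes. The sources used here do not give versions, annotation, strand setting or interval level. The design text speaks of duplicates, but the table holds 1 value per genotype, so nothing was tested. Bounds of the homozygote were divided by the median ratio before intervals were compared. Scripts ran in Python 3.11.15 with pandas 2.3.3, and the calls were tested on simulated data. Coordinates are dm3 loci copied from the table, with starts shifted to count from 1. Transcript lengths and classes came from a later annotation matched by symbol for 10915 genes (98.5%) and served for names, lengths and classes only. The members and the 39 gene lists were chosen with earlier results of these data known. Named by rule were AGO2, every 2-fold call, list members past 1.5-fold with up to 4 others per list, and all siRNA and balancer genes. Genes of chromosome 4, the Het sequences and shared loci, 7SLRNA, Nipped-B, Atf6, CG14219, CG2052, ey, gw, ATPsyn-beta, Nmdmc, ZnT35C, Fst, CG8483 and Mmp1 were chosen after their values were seen.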

Additional observations from a re-analysis of the deposited data

Results flagged for a closer look

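Opposite directions in the stocks, past 1.5-fold with intervals apart in each, were found for 7 genes, and the difference between stocks was not tested. CG13422 was higher in the V966M homozygote (centred change 1.0) and lower in that of 51B (39.8 and 8.76 FPKM). The other 6 were lower in V966M and higher in 51B. Dro had a centred change of -0.80 in V966M, LysE -0.79, LysD -0.74 and LysB -0.62. CG8483 had -0.83 and the matrix metalloproteinase gene Mmp1 -0.63 (133 and 72.1 FPKM in V966M, 91.1 and 166 FPKM in 51B). The 3 lysozyme genes are near-identical copies and do not count as separate observations.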

How the results depend on the processing

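As deposited, without centring, 6 genes were higher and 40 lower (13% higher, against 60% when centred), and the chromosome 4 median was -0.62, so the balance of directions rests on the scale. AttA, CG13422, CG14205, Cht4, Cpr72Ea and inaF-A were then not called, and medians of lists above 0 by less than 0.25 turned negative. With a pseudocount of 0.1 FPKM the calls were 15 and 13, and with 5 FPKM they were 4 and 3. With a mean of at least 5 FPKM 7 and 4 remained, at 1.5-fold 29 and 63 passed, and without regard to intervals 13 and 14. Leaving out chromosome 3 gave 8 and 5, and leaving out genes sharing a locus 8 and 4, in both cases because fewer genes were analysed. Centring on genes of at least 10 FPKM gave the same 12 and 8. Without the level filter 14 and 8 were called, of which 11 and 8 were among the calls reported above, and CG13422 was lost. Chosen after seeing the data, restriction to status OK in all 4 genotypes and omission of chromosome 4 and Het genes each gave 12 and 8. The centred chromosome 4 median lay between -0.41 and -0.30 under every centred setting run. No reported value that passed a threshold changed sign. No paired analysis was possible because each genotype has 1 value. Read depth is unknown, and a 1.5-fold difference parts the intervals for 40.6% of genes, so smaller differences of single genes were mostly not detectable.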
